A study of Rattus norvegicus with 30 samples.

Results

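Pcdh9 encodes protocadherin 9, and DNA methylation (DNAm) along the body of this gene was followed in the prefrontal cortex (PFC) of young rats. The members are regions of called methylated DNA immunoprecipitation sequencing (meDIP-seq) peaks that overlap chr15:76891491-77674000 of the rat genome Rn6, the stretch between the sites of Pcdh9 that the study listed. Peaks of all 30 libraries were merged where they overlapped by at least 1 bp, and a merged region was kept when 2 or more libraries had a peak in it. This gave 120 regions in the span of 783 kb, of 432103 such regions on the autosomes.

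Protocadherin 9 is a single-pass membrane protein of the cadherin superfamily. It belongs to the non-clustered delta protocadherins, which sit at contacts between neurons and take part in calcium-dependent adhesion and in the sorting of axons and synapses during cortical development. Methylation within gene bodies is common in transcribed neuronal genes, and long introns such as those of Pcdh9 hold scattered CpG sites more than CpG islands. MeDIP-seq pulls down fragments that carry 5-methylcytosine with an antibody, so a peak needs both methylation and enough CpG sites in a fragment.

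The animals were Sprague-Dawley rats killed at postnatal day 22, with 10 animals in each of 3 prenatal groups. Dams of the prenatal alcohol exposure (PAE) group ate a liquid ethanol diet ad libitum. Pair-fed (PF) dams received a liquid control diet, with maltose-dextrin in place of ethanol, in the amount a PAE partner ate, and control (CON) dams ate pelleted control diet ad libitum. Each group had 5 animals labelled female and 5 labelled male from 5 dams, so each dam gave a pair of littermates. The tissue held all cell types of the PFC, and methylation in few cells cannot be told apart from weaker methylation in many.

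The libraries were sequenced on 5 chips that held the groups unevenly, with no PF animal on chip UEX000295 and no PAE animal on chip UEX000298. Chips UEX000296 and UEX000297 held 1 CON animal each, and chip UEX000299 held 1 PF animal. Comparisons within these chips can therefore rest on 1 animal of a group. The libraries held 11548314 to 16555049 filtered fragments, with means of 13387343 in CON, 14178520 in PF and 14277831 in PAE. Peak heights are scaled by this number, and its part in the group differences was not tested. Peaks on the sex chromosomes did not follow the labelled sex. In 7 libraries, 2.65 to 3.14% of peaks lay on chromosome X and 4 to 11 peaks on chromosome Y, and 5 of these 7 animals were labelled male. In the other 23 libraries the chromosome X share was 0.774 to 1.15% with 38 to 87 peaks on chromosome Y, and 13 of them were labelled female. Comparisons by sex therefore use the labels as given.

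Across the span, regions of methylated DNA were about as dense as elsewhere, and a smaller share of them was seen in many libraries. The span held 15.3 regions per 100 kb, against 16.2 on the rest of chromosome 15 and 16.5 on all autosomes. Lengths of the 120 regions ran from 274 to 1781 bp, the median was 453.5 bp against 499 bp over all autosomes, and together they covered 8.06% of the span. Only 21 of them (17.5%) had a peak in 15 or more libraries, against 23.3% of autosomal regions. No region of the span was called in all 30 libraries, as 2.76% of autosomal regions were. These shares were not tested against each other.

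Most regions were seen in few animals. Of the 120, 24 were called in 2 libraries, 42 in 3 to 5, 33 in 6 to 14, and 10 in at least 20. Just outside the rule, another 67 regions of the span were called in 1 library, 21 of them in CON, 25 in PF and 21 in PAE. Peaks in the regions called in 1 library had a median height of 0.569, and those in the regions called in 2 libraries 0.681. Here and below, the height of a peak is its highest pileup of fragments per 1000000 filtered fragments, called the normalized height. The nearest regions outside the span were chr15:76872211-76872598, called in 8 libraries, and chr15:77679176-77679593, called in 9.

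The regions were spread unevenly, with a median gap of 4.27 kb between neighbours. The longest stretch without a member ran for 47.2 kb from 386 to 434 kb, measured from the start of the first listed site. The next ran for 42.8 kb from 243 to 285 kb. In the table of RefSeq genes for another assembly, GRCr8, the Pcdh9 locus (gene ID 306091) also holds the small nuclear RNA gene LOC120097302 and the long non-coding RNA genes LOC120097140 and LOC120097141. Their places in Rn6 were not used here, and exons inside the span were not annotated here.

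**Figure D1:**
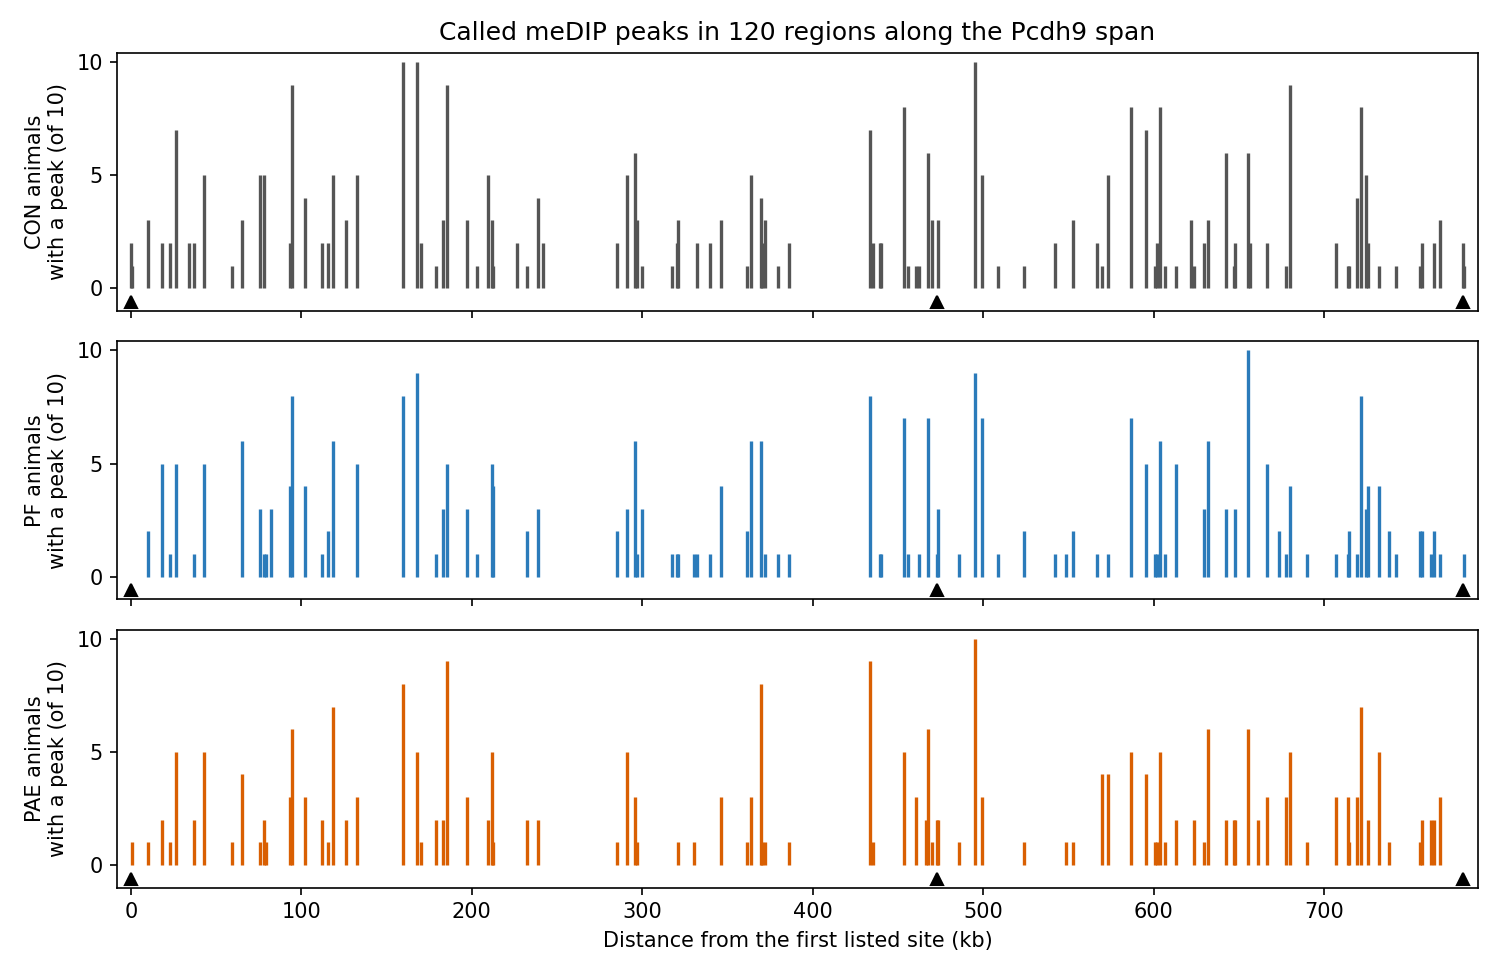
Number of CON, PF and PAE animals (of 10 each, vertical axes) with a called peak in each of the 120 regions, against the distance in kb from the first listed Pcdh9 site. Black triangles mark the 3 listed sites, which are among the regions with the fewest calls, while 10 regions were called in at least 20 libraries.

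The tallest and most recurrent region was chr15:77386558-77387034, at 495 kb. It had a peak in 29 libraries, all 10 CON, 9 PF and all 10 PAE, and was the only region with a mean height over 1. Heights were 0.858 at the lowest, 1.47 at the median and 1.99 at the highest in CON. They were 0.438, 1.14 and 1.68 in PF and 1.15, 1.35 and 2.05 in PAE, where 0.438 is the common floor given to animals without a called peak or with a lower one. The 3 groups overlapped, and the only animal at the floor was a PF animal. Mean heights were 1.45 ± 0.397 in CON, 1.11 ± 0.341 in PF and 1.41 ± 0.278 in PAE (SD, n = 10 each). The summits of its 29 peaks lay within 119 bp of each other, so the same short stretch was enriched in nearly every animal.

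The next in height lay at 434 kb (chr15:77325102-77326156) and 467 kb (chr15:77358910-77359806). At 434 kb a peak was called in 7 CON animals, 8 PF animals and 9 PAE animals, and median heights were 0.789, 0.829 and 0.865. At 467 kb the numbers were 6, 7 and 6, and the median heights 0.803, 0.833 and 0.692. In both, each group reached from the floor to above 1, so the groups overlapped, although CON reached the highest. At 434 kb the highest CON animal was at 1.80, the highest PF at 1.21 and the highest PAE at 1.10. At 467 kb the highest animals were at 1.46, 1.09 and 1.22.

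The longest region, chr15:77059444-77061224 at 168 kb, was called in all 10 CON animals, 9 PF animals and 5 PAE animals. Its heights were low throughout, from 0.438 through a median of 0.621 to 0.863 in CON, from 0.438 through 0.595 to 0.897 in PF, and from 0.438 through 0.438 to 0.715 in PAE. More PAE than CON or PF animals lay at the floor, although the ranges overlapped. The fitted log2 difference was -0.39 (SE 0.169) for PAE versus CON and -0.38 (SE 0.169) for PAE versus PF, with limma adjusted p of 0.663 and 0.988. For PF versus CON it was -0.01 (SE 0.175). Within chips, PAE was below CON on 4 of the 4 chips that held both and below PF on 3 of 3. On chips UEX000296 and UEX000297 the CON side was 1 animal, and on chip UEX000299 the PF side was 1 animal. The summits of the 24 peaks spread over 1418 bp, so different animals were enriched at different places of this region.

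**Figure D2:**
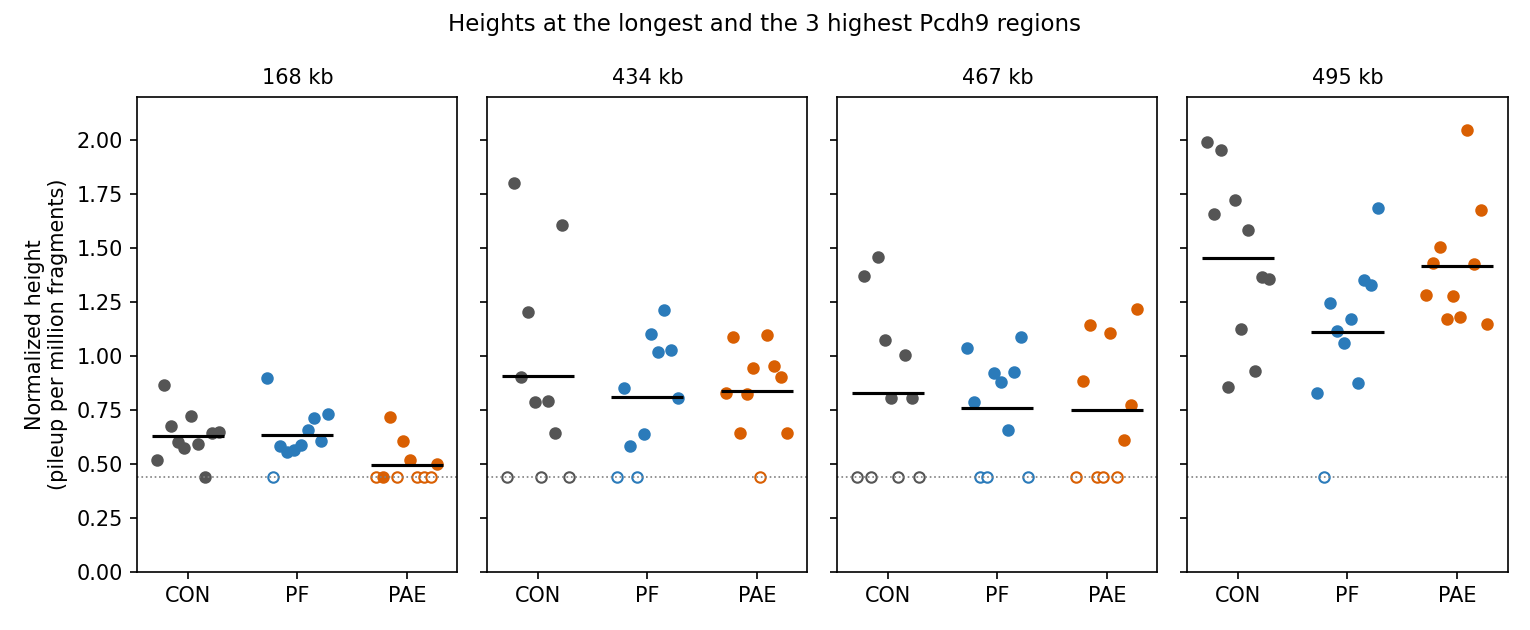
Normalized height (pileup per 1000000 filtered fragments) of each animal at the longest region (168 kb) and the 3 regions with the highest mean height. Filled points are animals with a called peak, open points animals without one, set to the floor of 0.438 (dotted), and lines group means. At 168 kb the called peaks of C44_M and E2_F were lower than the floor, so these filled points lie on it. At 168 kb 5 PAE animals had a called peak against 10 CON animals, and at 495 kb 29 of 30 animals did.

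The 3 listed sites are at the other end of the scale. The study annotates each as intronic, and lists them as differing from CON in the same direction in PAE and PF animals. That contrast chose them, so their values are given as a description without a test. At chr15:76891491-76891927 only C41_F and C46_M, both CON, had a peak, with heights of 0.433 and 0.388 from pileups of 5 and 6 fragments. Both heights lay under the common floor, so with that floor every animal had the same value at this site. At chr15:77673049-77673346 only C41_F and C45_M, again CON, had a peak, at 0.779 and 0.642. At chr15:77364183-77364512 no CON animal had a peak, and the PF animal PF28_M (1.24) and the PAE animals E9_M (0.716) and E3_M (0.475) did.

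The called peaks at the listed sites thus came from 2 or 3 animals each, and 2 of the 3 sites were below the minimum of 3 animals for the fit. The study itself dropped peaks seen in under 3 samples and tested read counts taken from every sample. Those counts were not used here, and why 2 listed sites had called peaks in only 2 animals was not tested. Of the 22 other regions of the span called in 2 libraries, 4 (18.2%) had both peaks in CON animals, 1 (4.55%) in PF animals and 2 (9.09%) in PAE animals. Over all autosomal regions called in 2 libraries, the shares were 13.5%, 9.75% and 8.53%. Around the listed sites, 7 other members lay within 10 kb. The nearest were at 362, 364 and 507 bp. Next to the first site, chr15:76892291-76892839 had a peak in 1 CON and 1 PAE animal. Farther off, chr15:76901399-76901774 had peaks in 3 CON animals, 2 PF animals and 1 PAE animal. Next to the middle site, chr15:77365019-77365537 had peaks in 3 CON animals, 3 PF animals and 2 PAE animals. At 2223 bp, chr15:77361435-77361960 had peaks in 3 CON animals, no PF animal and 1 PAE animal. At 4377 bp, chr15:77358910-77359806 had peaks in 6 CON, 7 PF and 6 PAE animals. At 5842 bp, chr15:77358021-77358341 had peaks in 2 PAE animals alone. Next to the last, chr15:77673708-77674105 was called in 1 CON and 1 PF animal.

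Other genes of the cadherin superfamily and the catenins, the cytoplasmic partners of classical cadherins, are also in the study's lists. They have 8 sites in 6 genes, all intronic, and were called in 2 to 26 libraries, against 2 or 3 for the Pcdh9 sites. These too were chosen by group differences and are described without a test. Cdh13 (chr19:51285919-51286626), a cadherin anchored to the membrane by a lipid, had peaks in 9 CON animals, 10 PF animals and 7 PAE animals, at heights of 1.48 ± 0.438, 1.53 ± 0.310 and 1.08 ± 0.554 (SD, n = 10 each). Cdh23 (chr20:30243177-30243624), known for the tip links of hair cells, had peaks in 9 CON animals, 7 PF animals and 8 PAE animals, at heights of 1.68 ± 0.598, 1.04 ± 0.457 and 1.15 ± 0.579. The remaining 6 sites, in Cdh13, Clstn2, Ctnna2, Ctnnd2 and Pcdh15, were called in 2 to 6 libraries. Of these, Pcdh15 had peaks in 2 CON animals alone, and Ctnna2, which links cadherins to actin in neurons, in 5 PF animals alone.

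The mean number of members called per animal was highest in CON and lowest in PAE, with wide overlap. CON animals had 21 to 56 of the 120 regions (median 33, mean 34.5 ± 11.5, SD, n = 10), PF animals 22 to 46 (median 31, mean 30.5 ± 7.76) and PAE animals 12 to 56 (median 25.5, mean 27 ± 12.0). Both the highest and the lowest PAE animal came from the same dam and the same chip, E2_F with 56 regions and E2_M with 12. Without E2_F the PAE mean was 23.8 ± 6.82 (n = 9), and the mean PAE share of all autosomal regions called went from 29.8% to 28.5%. The CON animal C43_F, on the same chip and also with 56 regions, was kept. The listed sites add 4 CON, 1 PF and 2 PAE calls in all to these numbers. With all animals, the SD within each group was larger than the distance between the group means. Without E2_F, and with C43_F kept, the PAE mean lay below the CON mean by more than the PAE SD of 6.82. The distance was less than the CON SD of 11.5. No p-value is given for these sums over the members.

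The share of all autosomal regions called per animal moved with these counts, at 33.1 ± 5.64% in CON, 31.6 ± 4.10% in PF and 29.8 ± 5.70% in PAE. Over the 10 animals of a group, PF had 89.1% and PAE 78.6% of the CON calls in the span without the listed sites, against 95.4% and 89.9% over all autosomal regions. Its part in the difference was not tested. In 27 of 30 animals the share of Pcdh9 regions called was below the share of all regions called. Chip moved with the counts as well, from 25.2 ± 5.02 regions per animal on chip UEX000295 (n = 5) to 41.3 ± 17.2 on chip UEX000299 (n = 6). Within chips, the PAE mean was below the CON mean on 3 of 4 chips and the PF mean below the CON mean on 3 of 4. Without chip UEX000299 the means were 30.1 ± 7.57 in CON (n = 8), 28.8 ± 5.87 in PF (n = 9) and 24.6 ± 5.62 in PAE (n = 7). In the same animals the mean shares of all autosomal regions called were 30.8%, 30.6% and 28.3%.

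**Figure D3:**
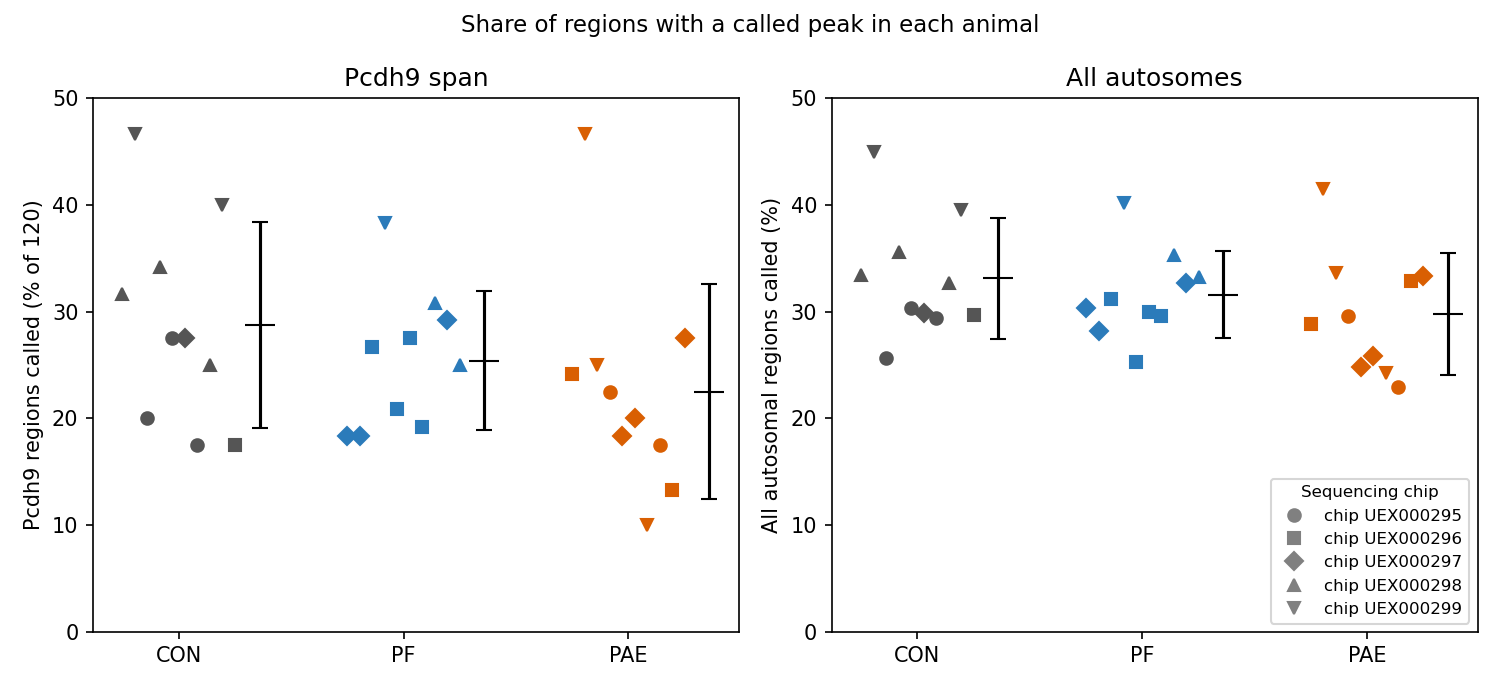
Share of the 120 Pcdh9 regions (left) and of all autosomal regions called in 2 or more libraries (right) with a called peak in each animal, by prenatal group. Marker shapes show the sequencing chip, and bars the mean ± SD of 10 animals. In both panels the groups overlap, and 4 animals of chip UEX000299 have the highest shares of the Pcdh9 regions, while E3_F and E2_M of that chip are at 25% and 10.0%.

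The calls were not gathered in one part of the span. In windows of 100 kb from the first listed site, and leaving out the listed sites, CON animals had more calls than PAE animals in 7 of 8 windows, with 49 against 35 in the first, and fewer in the last, with 34 against 35. PF animals had fewer calls than CON animals in 6 windows, and more in the other two, with 52 against 51 between 600 and 700 kb and 36 against 34 in the last. The windows share the same animals and are not replicates. Over all autosomal regions PAE had 89.9% and PF 95.4% of the CON calls, and windows elsewhere were not counted. The window counts therefore cannot be read as particular to the span. The second window, from 100 to 200 kb, held the most calls in CON (59) and PAE (48), and 3 of the 10 regions called in at least 20 libraries lay there. The window from 400 to 500 kb also held 3 of them. Of the 117 regions other than listed sites, PAE had calls in fewer animals than CON at 62 (53.0%) and in more at 28 (23.9%), while over all autosomal regions 44.8% had fewer and 30.1% more. Between PF and CON the numbers were 55 (47.0%) and 35 (29.9%), against 40.8% and 33.9% over all autosomal regions. For PAE versus PF, 57 regions (48.7%) had calls in fewer PAE animals and 33 (28.2%) in more, against 40.4% and 32.6% over all autosomal regions.

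Littermates shared about as many of the regions as unrelated animals did. A pair of littermates shared a mean of 26.8% of the regions called in either, pairs of the same group from other dams 26.7%, and pairs from different groups 26.4%. Over all autosomal regions the means were 36.5%, 36.5% and 36.3%, so pairs of animals shared fewer of the Pcdh9 calls than of calls in general. These shares are descriptions, since each animal enters many pairs.

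Heights were then compared between groups on the log2 scale with limma, across the 352026 autosomal regions called in at least 3 animals, with labelled sex and chip in the model. Of the 120 members, 96 had calls in at least 3 animals, and 1 of them is a listed site, which leaves 95. For PAE versus CON, none of the 95 passed a false discovery rate (FDR) of 0.05 with Benjamini-Hochberg adjustment over all regions, where 0.000284% of all regions did, and the smallest adjusted p was 0.661. At an unadjusted p under 0.05, 5 were lower in PAE (5.26%, against 6.03% of all regions) and 1 was higher (1.05%, against 1.34%). Both shares were thus near those of the genome, and without C45_M 3 regions in all were at that threshold. Fisher's exact test of called peaks gave 2 of the 95 at that threshold before adjustment, against 0.864% of all regions, and 0 past the FDR, against 0.0%.

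In PF versus CON, none of the 95 passed the FDR, as did 0.0% of all regions, with a smallest adjusted p of 0.773. At an unadjusted p under 0.05, 5 were lower in PF (5.26%, against 4.39% of all regions) and 1 was higher (1.05%, against 2.06%), and Fisher's exact test gave 1 region, against 0.786% of all regions. The 6 became 10 without C41_F or C44_M and 3 without PF22_M. For PAE versus PF none passed either, with 0.0% of all regions past the FDR and a smallest adjusted p of 0.988. There, 4 were lower in PAE at an unadjusted p under 0.05 (4.21%, against 2.95% of all regions) and 1 was higher (1.05%, against 1.51%), and Fisher's exact test gave 0, against 0.747% of all regions. The comparisons share animals, so their values are set side by side and not counted as separate support.

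Most fitted differences from CON were small and below 0. For PAE versus CON, 69 of the 95 regions (72.6%, against 63.2% of all tested regions) had a negative value and 25 a positive one, from -0.60 to 0.50 with a median of -0.09, where the median over all tested regions was -0.05. In PF versus CON, 59 were negative (62.1%, against 57.6%) and 35 positive, with a median of -0.05 against -0.03 over all tested regions. For PAE versus PF, 52 were negative (54.7%, against 56.4%) and 42 positive, with a median of -0.02 against -0.02. A median SE of 0.150 stood behind a single region's PAE versus CON difference, larger than the median difference itself. The split narrowed when heights were scaled otherwise. With quantile normalization 57 of the 95 were negative for PAE versus CON, the median was -0.02, and the regions with an unadjusted p under 0.05 were 1 lower and 2 higher. With median ratio scaling 2 were lower and 2 higher. Those regions for PF versus CON were 2 lower and 0 higher with quantile normalization and 3 lower and 0 higher with median ratio scaling. For PAE versus PF they were 1 lower and 2 higher, and 3 lower and 2 higher. Shares of all tested regions under these scalings are not given here, so the change cannot be read as particular to the span.

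**Figure D4:**
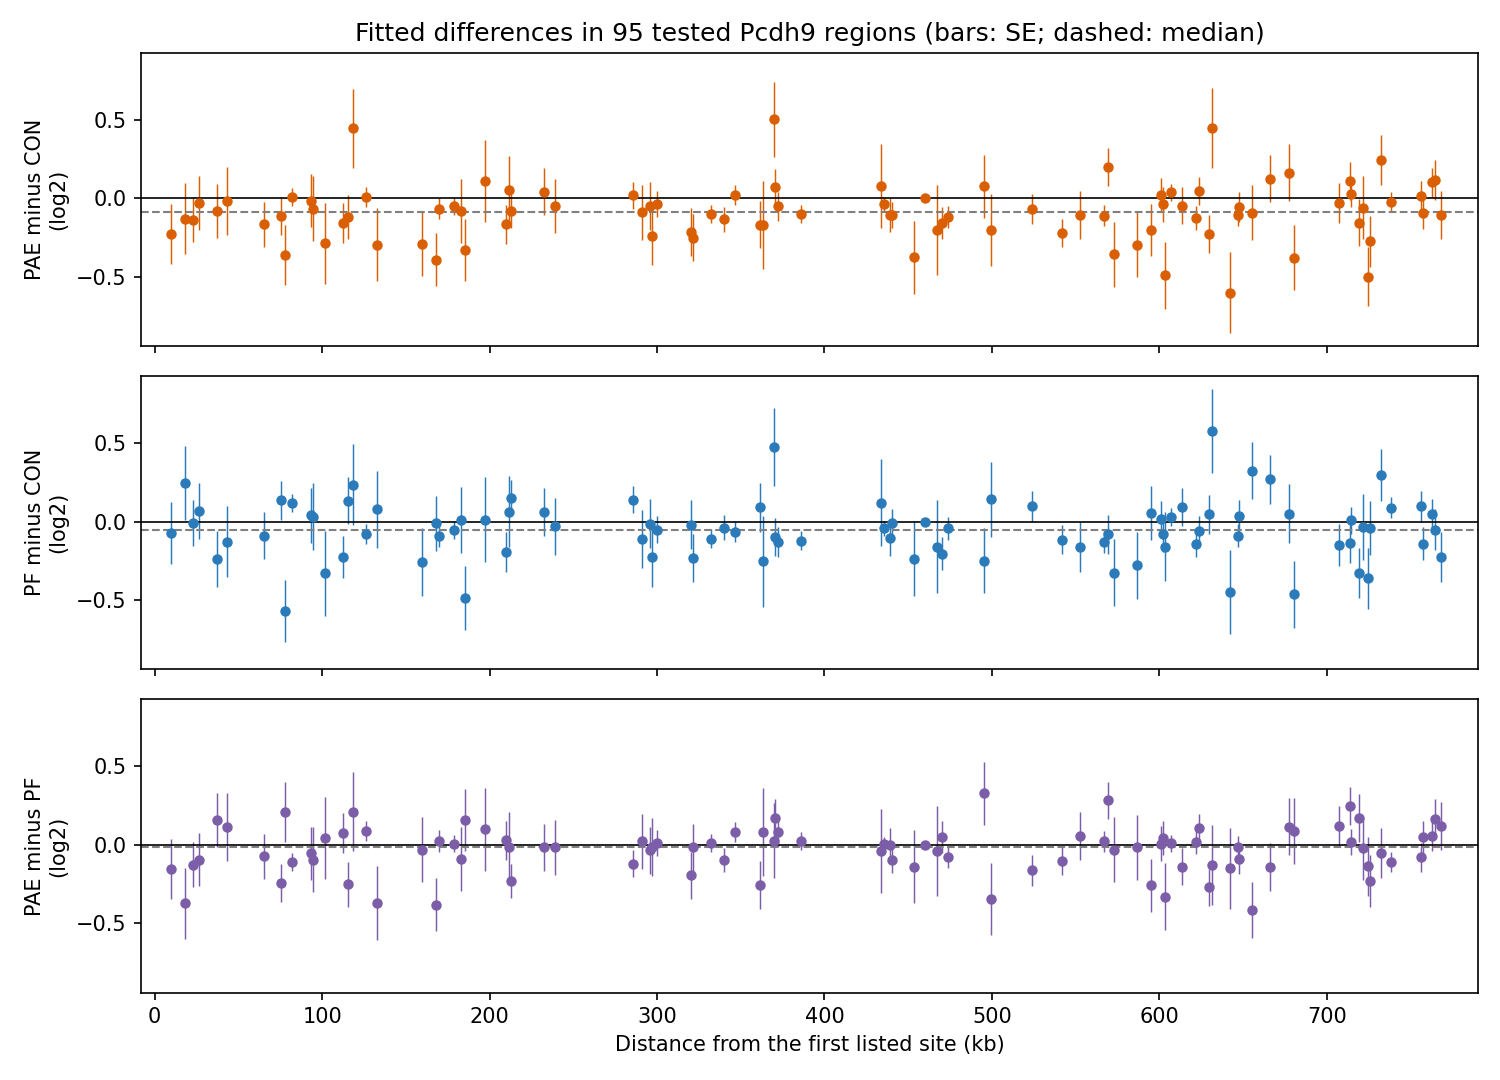
Fitted log2 differences in normalized height (vertical axes) with their SE in the 95 tested regions other than listed sites, against the distance in kb from the first listed Pcdh9 site, for PAE minus CON, PF minus CON and PAE minus PF. Dashed lines are the medians, -0.09, -0.05 and -0.02, and no region passed an FDR of 0.05 in any of the 3.

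By window, the median PAE versus CON difference was below 0 in all 8 windows, from -0.16 between 500 and 600 kb to -0.02 in the last. The median over all tested autosomal regions was itself below 0, at -0.05, and some windows lay nearer 0 than that. The PF versus CON median was above 0 in 2 windows, 0.01 in the first and 0.02 between 600 and 700 kb, and was lowest at -0.12 between 500 and 600 kb. In the first window 11 of 12 tested regions were negative for PAE versus CON and 6 of 12 for PF versus CON. Over all tested autosomal regions the negative shares were 63.2% and 57.6%. The window between 500 and 600 kb had the fewest tested regions, 8.

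The regions with the smallest p in each comparison are described next. They were picked by that p and none passed the FDR. Their directions within chips come from the same values and are not separate support. For PAE versus CON the first was chr15:77615803-77616212 at 724 kb. It had a peak in 5 CON animals, 3 PF animals and no PAE animal. Heights in CON reached from 0.438 through a median of 0.540 to 1.29, in PF from 0.438 through 0.438 to 0.849, and all PAE animals were at the floor. The CON and PF animals with a peak thus stood above every PAE animal, while the other CON and PF animals had the same floor value. The fitted difference was -0.50 (SE 0.188, limma p = 0.0122, adjusted p = 0.661), and PAE was below CON on 3 of 4 chips and level with it on the other.

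The next for PAE versus CON were at 542 kb (chr15:77433520-77433880) and 642 kb (chr15:77533681-77534100). At 542 kb only C43_F (1.01), C45_M (0.562) and PF27_F (0.557) had a peak, and all 3 were sequenced on chip UEX000299. The fitted difference was -0.22 (SE 0.0909), and PAE was below CON on 1 chip of 4. At 642 kb 6 CON, 3 PF and 2 PAE animals had a peak, with highest values of 1.39, 1.27 and 1.07, and a fitted difference of -0.60 (SE 0.258). The 3 groups overlapped there. Adjusted p by limma were 0.661 and 0.663.

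For PF versus CON the smallest p was at 78 kb (chr15:76969556-76969941), with a peak in 5 CON animals, 1 PF animal and 2 PAE animals. The CON animals with a peak were C41_F (1.04), C45_F (0.772), C41_M (0.803), C44_M (0.932) and C45_M (1.36). The PF animal, PF22_F, was at 0.483, and the PAE animals at 0.787 and 0.803. The CON peaks thus stood above the PF peak, and the PAE peaks lay among the lower CON values. The fitted difference was -0.57 (SE 0.198, limma p = 0.00717, adjusted p = 0.773) for PF versus CON and -0.36 (SE 0.191) for PAE versus CON.

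At 185 kb (chr15:77076896-77077875), 9 CON, 5 PF and 9 PAE animals had a peak. Heights ran from 0.438 through a median of 0.871 to 1.10 in CON, from 0.438 through 0.481 to 1.19 in PF, and from 0.438 through 0.739 to 0.886 in PAE. The highest of all animals was a PF animal, PF27_F, although PF had the most animals at the floor. The fitted PF versus CON difference was -0.49 (SE 0.205, adjusted p = 0.773 by limma). At 632 kb (chr15:77523153-77523749) the order was the opposite, with a peak in 3 CON, 6 PF and 6 PAE animals and median heights of 0.438, 0.853 and 0.764. The fitted difference was 0.58 (SE 0.266) for PF versus CON and 0.45 (SE 0.256) for PAE versus CON. PF was above CON on 4 of 4 chips, although chips UEX000296 and UEX000297 held 1 CON animal and chip UEX000299 held 1 PF animal. The highest CON animal, C44_F at 1.28, lay among the highest PF animals.

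**Figure D5:**
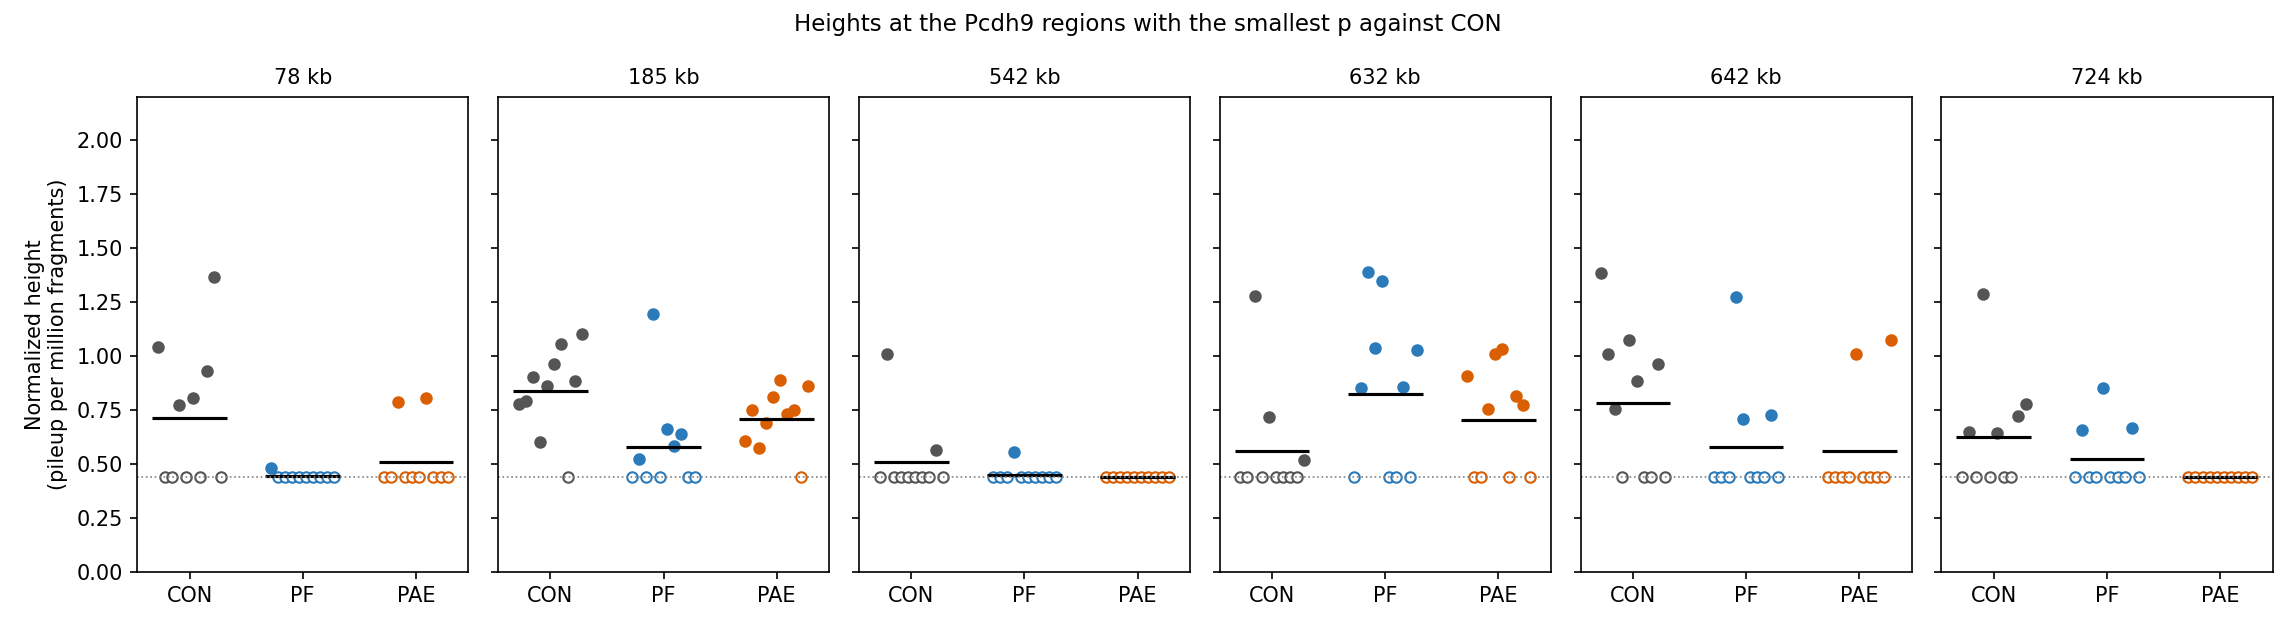
Normalized height (pileup per 1000000 filtered fragments) of each animal at the 6 regions with the smallest p for PAE versus CON or PF versus CON. Filled points are animals with a called peak, open points animals set to the floor of 0.438 (dotted), and lines group means. The panel at 724 kb has all 10 PAE animals at the floor, and only the panel at 632 kb has more called PF and PAE animals than CON animals.

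For PAE versus PF, chr15:77460903-77461226 at 569 kb had a peak in 4 PAE animals, no PF animal and 1 CON animal, and a fitted difference of 0.28 (SE 0.119). The PAE animals were E1_F (0.754), E2_F (0.885), E9_F (0.606) and E9_M (0.573). PAE was above PF on 3 of 3 chips, with 1 PF animal on chip UEX000299. At 655 kb (chr15:77546940-77547582) all 10 PF animals had a peak, from 0.483 through a median of 0.701 to 0.947, against 6 PAE animals, with a median of 0.522 and a highest value of 0.859. In CON 6 animals had one, with a median of 0.573. No PF animal was at the floor, unlike in the other groups, but the ranges overlapped, and the fitted PAE versus PF difference was -0.42 (SE 0.177). At 629 kb (chr15:77520916-77521273), 2 CON, 3 PF and 1 PAE animals had a peak, and the difference was -0.27 (SE 0.120). Adjusted p by limma was 0.988 at each of the 3.

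Whether the group differences differed between the labelled sexes was tested with an interaction term. None of the 95 regions passed the FDR, as did 0.0% of all regions in each of the 3 comparisons, and the smallest adjusted p was 0.942. At an unadjusted p under 0.05, 3 regions (3.16%) had a sex difference in PAE versus CON, against 4.87% of all regions. For PF versus CON there were 8 (8.42%), against 4.77%, of which 7 had a larger value in animals labelled male. For PAE versus PF there were 4 (4.21%), against 3.19%. These counts rested on single animals, with 0 for PAE versus CON without C43_F or E3_M, 1 without C45_M and 6 without E2_M. They were 3 for PF versus CON without C43_F, 4 without PF27_M and 5 without PF28_F, and 2 for PAE versus PF without PF22_M, PF24_M or PF27_F. At 434 kb, one of the 3 tallest regions, heights were 1.03 ± 0.511 in CON females and 0.590 ± 0.171 in PF females, and 0.784 ± 0.483 in CON males and 1.03 ± 0.148 in PF males (SD, n = 5 each). The difference of the PF versus CON differences there was 1.38. The sex classes are those of the labels, which the sex chromosome peaks did not follow.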

How the data were processed

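MeDIP-seq peaks of 30 animals were used. Per the study, BWA aligned the reads to Rn6, samtools filtered them, and MACS2 (2.1.4 in the headers) made a peak list for each animal on its own, with no control. The authors deposited peaks as called. The deposited pileup of a peak is its signal, not scaled for depth, and the deposited −log10 q-value set the stricter peak threshold. Reads per region, which the authors tested with edgeR after ComBat, were not used here. Pileups were scaled to 1000000 filtered fragments, with a floor of 0.438. As coverage below the calling threshold is not seen, differences from animals without a peak can be understated or overstated. The log2 of the heights was modelled in R 4.3.3 with limma 3.58.1 (trended prior variance, labelled sex and chip as terms), and checked on simulated data. Called peaks were also compared with Fisher's exact test. Tables and figures used Python 3.11.15 and matplotlib 3.10.9.

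The members and lists were chosen with earlier results of these data known. Regions named are the listed sites, the 3 smallest p per comparison, the 3 highest, the longest, and the study's listed cadherin and catenin sites. The neighbours of listed sites were named after their values were seen. Positions and genes of listed sites came from the study's supplement. No base sequence is given, because no Rn6 sequence was used here. Animals share dams in pairs, and p-values treat them as independent except where litter was a random effect.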

Additional observations from a re-analysis of the deposited data

Results flagged for a closer look

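In 27 sets of 4 to 10 values, the highest or lowest animal was compared with its nearest neighbour by Dixon's test, which chance passes in about 1 of 20 sets. It singled out 3 values. E2_F had 56 of the 120 Pcdh9 regions, while the next PAE animal had 33. At 724 kb (chr15:77615803-77616212) C45_F had a height of 1.29, the highest of the 5 CON peaks, and the next was at 0.776. At 185 kb (chr15:77076896-77077875) PF27_F had a height of 1.19, the highest of the 5 PF peaks, and the next was at 0.659. No region of the span had a difference between the labelled sexes past an FDR of 0.05 by limma.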

How the results depend on the processing

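The count of regions past an FDR of 0.05 stayed at 0 in each comparison under all alternatives run. At an unadjusted p under 0.05 there were 2 to 13 regions for PAE versus CON, 1 to 18 for PF versus CON and 0 to 10 for PAE versus PF. Shares of all regions under these alternatives are not given here. The median log2 difference moved by more than the spread between animals only with animals without a peak set to 0 and a pseudocount of 0.1, to -0.34 for PAE versus CON and -0.17 for PF versus CON, an alternative that lowers the value of such animals by construction. Without each animal in turn, the medians were -0.10 to -0.06 for PAE versus CON, -0.07 to -0.04 for PF versus CON and -0.03 to 0.01 for PAE versus PF. Over the other alternatives the median for PAE versus PF was between -0.11 and 0.0027, so its sign was not stable.

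The direction of a named region turned where its value was small, and the cause was not tested. Without the chip term, PF versus CON was 0.010 at 168 kb and -0.063 at 434 kb, and PAE versus CON was -0.0100 at 495 kb. PF versus CON at 168 kb was 0.033 with median ratio scaling and 0.050 with quantile normalization, which also gave 0.016 at 467 kb. Without the 7 libraries with a high chromosome X share, an alternative chosen after seeing the data, PAE versus CON was -0.14 at 434 kb and -0.018 at 495 kb, and PF versus CON was -0.29 at 434 kb. Without each animal in turn, PF versus CON was -0.084 to 0.057 at 168 kb, -0.070 to 0.365 at 434 kb and -0.33 to 0.0028 at 467 kb, and PAE versus CON was -0.072 to 0.26 at 434 kb.

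No fit was restricted to regions called in all 30 animals, because the span has none. Fragments per library differed, and their part in what was called was not tested. Coverage below the calling threshold is not seen. No paired analysis was possible because the groups share no replicate numbers.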
